A study of Rattus norvegicus and Mus musculus with 24 samples.

Results

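The INK4 and KIP families of cyclin-dependent kinase (CDK) inhibitors were followed in the kidneys of cystinosin (Ctns) knockout mice and rats. The members were the 7 symbols CDKN1B, CDKN1C, CDKN2A, CDKN2B, CDKN2C, CDKN2D and CDKN3, taken by exact match of the gene column, and CDKN1A, the third KIP gene, was left out by that rule. All 7 stood among the 17376 symbols of the mouse table, and 4 (CDKN1B, CDKN2B, CDKN2C and CDKN3) among the 14931 symbols of the rat table. CDKN1C, CDKN2A and CDKN2D were not analysed here in the rat. Both tables carry capital-letter symbols, which are used for both species.

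Bulk RNA sequencing was done on 4 Ctns KO and 4 Ctns WT mice of a C57BL/6 background, and on 8 Ctns KO and 8 Ctns WT rats of a Sprague-Dawley background, with 1 library per animal and littermates as controls. By the study's methods KO and control animals were matched for age and sex, and its reporting summary gives all mice as female. Age at sampling, sex of the sequenced rats, any treatment, and the part of Ctns that each line lacks are not given in the sources used here. The rats carry animal numbers 17 to 24 or 25 to 32, with 4 KO and 4 WT in each range; what the ranges stand for is not stated, so they were used only as 2 sets of rats. The methods and tissue label name kidney cortex, whereas the extraction label names microdissected proximal tubules. Reads on genes ranged from 19309371 to 44449845 per mouse and from 24684097 to 40629873 per rat. Summed markers of the distal nephron and collecting duct (7976 to 10750 CPM, counts per 1000000 reads on genes, in the mice) and of podocytes (877 to 1019 CPM) stood beside those of the proximal tubule (12559 to 16643 CPM), so the libraries held more than proximal tubule cells.

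The cystine exporter gene CTNS itself checked the labels in the mouse, with 15.5 to 16.9 CPM in the 4 KO mice and 39.0 to 47.4 CPM in the 4 WT mice. In the rats CTNS overlapped, at 16.8 to 22.96 CPM in KO and 18.99 to 26.4 CPM in WT (log2 fold change -0.22, edgeR with Benjamini-Hochberg adjusted p = 0.0511). It passed without KO rats 24 or 26 or WT rats 17, 19 or 21 (adjusted p from 0.0312 to 0.134 over the 16 fits without 1 rat), and also in rats 25 to 32 (-0.32, adjusted p = 0.0111). There the call was lost without KO rat 32 (adjusted p = 0.0606) and with scaling by library totals (-0.16, adjusted p = 0.240). With these overlapping levels, total reads on CTNS did not check the genotype label of each rat.

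Progression from G1 into S phase depends on D-type cyclins with CDK4 or CDK6 and on cyclins E and A with CDK2, which phosphorylate the retinoblastoma proteins and release E2F factors. INK4 proteins (p16, p15, p18 and p19, from CDKN2A, CDKN2B, CDKN2C and CDKN2D) bind CDK4 and CDK6, whereas KIP proteins (p27 and p57, from CDKN1B and CDKN1C) bind cyclin-CDK complexes, above all those of CDK2. CDKN3 carries an inhibitor's name but encodes a phosphatase that removes the activating phosphate of CDK2 and CDK1, and its mRNA is known to peak late in the cell cycle. In the kidney, p57 is known from mature podocytes and p27 from resting cells of many kinds.

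Proximal promoters of CDKN3 and CDKN2B, the members called higher in KO mice and in KO rats of at least 1 number range, are shown with that of CDKN1B, which was not called in the 4 knockout contrasts as fitted. Each window covers the 250 bases before the transcription start site, on the strand of the gene, from RefSeq rat assembly GRCr8. This build is not the rn5 build of the submitters' notes and served for sequence only. Capitals mark TTTGAA, the core of the cell-cycle genes homology region (CHR), and CCAAT, the box bound by NF-Y, in either orientation (TTCAAA and ATTGG on the other strand).
CDKN3, chr15:22502136-22502385, plus strand: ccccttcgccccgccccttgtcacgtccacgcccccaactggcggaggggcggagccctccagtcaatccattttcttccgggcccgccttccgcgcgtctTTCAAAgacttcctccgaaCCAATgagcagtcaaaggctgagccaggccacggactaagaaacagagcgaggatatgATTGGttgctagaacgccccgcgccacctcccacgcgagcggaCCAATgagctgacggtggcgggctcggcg
CDKN2B, chr5:109134856-109135105, minus strand: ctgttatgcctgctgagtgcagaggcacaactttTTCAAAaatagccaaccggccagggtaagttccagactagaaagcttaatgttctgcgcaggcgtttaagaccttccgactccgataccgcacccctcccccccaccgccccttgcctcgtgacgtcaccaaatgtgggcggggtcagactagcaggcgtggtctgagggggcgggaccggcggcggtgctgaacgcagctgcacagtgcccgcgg
CDKN1B, chr4:169491254-169491503, plus strand: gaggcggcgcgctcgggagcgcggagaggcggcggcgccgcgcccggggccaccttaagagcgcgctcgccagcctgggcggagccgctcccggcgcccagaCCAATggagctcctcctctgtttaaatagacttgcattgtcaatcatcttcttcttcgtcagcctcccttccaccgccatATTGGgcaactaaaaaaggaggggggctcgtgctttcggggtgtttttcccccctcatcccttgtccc

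The CDKN3 window held 3 CCAAT boxes (from bases 130, 72 and 29 before the start site) and 1 TTTGAA (from base 149). CDKN2B held 1 TTTGAA (from base 216) and no CCAAT, and CDKN1B held 2 CCAAT boxes (from bases 148 and 68) and no TTTGAA. None of the windows of CDKN2A, CDKN2C and CDKN2D held either, and no member window held the E2F letters TTCCCGC or TTGGCGC or the forkhead letters GTAAACA. Over all 33360 rat promoter windows of the same length, both strands read, 34% held CCAAT, 16.2% TTTGAA, 5.01% an E2F match and 3.21% a forkhead match. At least 3 CCAAT boxes together with TTTGAA were found in 0.444% of windows. These matches are descriptions of the letters only. A second annotated start of CDKN3 gave a window holding the same matches, and 6 of the 7 members had a window.

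In WT mice the members lay far apart in level. Scaled per kilobase of exon, with all annotated exons of a gene merged, CDKN1C had 25.7 ± 1.84 CPM per kb and CDKN1B 10.4 ± 1.19 (SD, n = 4 for each level of this paragraph). The order of these 2 genes rests on the merged length, 2039 bases for CDKN1C and 4552 for CDKN1B. In plain CPM their WT ranges overlapped (49.6 to 57.8 and 39.6 to 51.8). CDKN2D followed with 5.63 ± 0.365 CPM per kb and CDKN2C with 4.61 ± 0.527. CDKN2B stood at 0.475 ± 0.305, CDKN2A at 0.0434 ± 0.0347 and CDKN3 at 0.0403 ± 0.0349 CPM per kb. Per kb of exon, the ranges of CDKN1C and CDKN1B did not meet any other, CDKN2D and CDKN2C touched (5.286 at the lowest CDKN2D mouse and 5.287 at the highest CDKN2C mouse), and CDKN2A and CDKN3 overlapped. In KO mice CDKN2C reached 6.50 ± 1.05 CPM per kb beside CDKN2D at 6.04 ± 0.834, with overlapping ranges, and CDKN3 at 0.598 ± 0.144 stood above CDKN2A at 0.0889 ± 0.121.

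**Figure D1:**
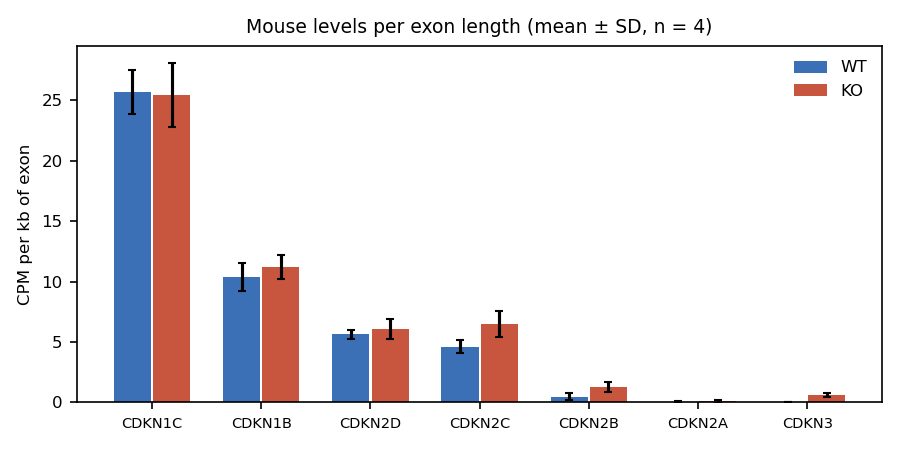
Mean CPM per kilobase of exon in 4 Ctns WT (blue) and 4 Ctns KO (red) mice for each of the 7 CDK inhibitor genes, with SD as error bars. CDKN1C had the highest level per kb of merged exon in both genotypes (25.7 and 25.5 CPM per kb), and CDKN2A and CDKN3 lie close to 0 in WT.

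The mouse contrast asked which inhibitor mRNAs differed in kidneys without cystinosin. CDKN3 and CDKN2B were higher in KO mice, whereas the KIP genes CDKN1B and CDKN1C and the INK4 gene CDKN2D stayed close to WT. CDKN2C was higher in the mean but fell just short of the threshold. Of the 6 members tested, 2 were called at an adjusted p under 0.05 by limma and both were higher, where 8.99% of all 13132 genes were called and 6.6% were called higher. CDKN3 passed the filter on low values only through the KO mice, where it is high, so this count only accounts for the members and nothing is read from it.

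CDKN1B, on chromosome 6 (134920401 to 134925513, GRCm38), encodes p27, which holds cyclin-CDK2 complexes inactive in resting cells. It had 58.0, 49.3, 48.7 and 48.5 CPM in KO mice 3, 5, 6 and 8, and 51.8, 50.3, 39.6 and 47.3 CPM in WT mice 1, 2, 4 and 7. The groups overlapped, KO mouse 3 being highest and WT mouse 4 lowest. The fitted log2 fold change was 0.04 (SE 0.09, 95% interval -0.15 to 0.24, limma adjusted p = 0.850).

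CDKN1C, on chromosome 7 (143458339 to 143461050), encodes p57 and is an imprinted gene. Its levels were 45.8, 50.4, 58.8 and 52.9 CPM in KO mice 3, 5, 6 and 8 and 57.8, 52.1, 50.2 and 49.6 CPM in WT mice 1, 2, 4 and 7. The groups overlapped over nearly their whole range. The log2 fold change was -0.09 (SE 0.08, interval -0.27 to 0.09, limma adjusted p = 0.608). The antisense gene Gm44732 overlaps CDKN1C, and whether counting used strand is not given in the sources used here. None of the 7 podocyte markers was called in the mice, and their sum was 898 to 1019 CPM in KO and 877 to 981 CPM in WT.

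CDKN2A and CDKN2B lie 11645 bases apart on chromosome 4 and encode p16 (with Arf in another reading frame) and p15. CDKN2A was at the limit of detection, with 6, 2, 0 and 1 reads in KO mice 3, 5, 6 and 8 and 2, 0, 3 and 2 reads in WT mice 1, 2, 4 and 7. At 9 and 7 reads in all, no difference was detectable at this depth, and CDKN2A did not pass the filter on low values.

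CDKN2B (89306299 to 89311039) had 0.984, 2.22, 1.56 and 2.19 CPM in KO mice 3, 5, 6 and 8, from 19 to 74 reads, against 0.721, 0.355, 0.328 and 1.237 CPM in WT mice 1, 2, 4 and 7, from 7 to 55 reads. The groups overlapped, since WT mouse 7 stood above KO mouse 3. CDKN2B rose by 0.93 on the log2 scale (SE 0.26, 95% interval 0.36 to 1.49, limma adjusted p = 0.0436). This call was lost without any 1 of 6 of the 8 mice (KO 5, 6 and 8 and WT 1, 2 and 4), with adjusted p from 0.0095 to 0.142 over the 8 fits. It was also lost without the filter (adjusted p = 0.111), with a pseudocount of 1 (0.0552) and in edgeR on recovered reads (0.0753), with the direction kept.

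CDKN2C, on chromosome 4 (109660876 to 109667189), encodes p18. It had 17.9, 21.04, 16.6 and 14.2 CPM in KO mice 3, 5, 6 and 8 and 11.4, 14.2, 11.1 and 12.8 CPM in WT mice 1, 2, 4 and 7. KO mouse 8 and WT mouse 2 met at 14.2 CPM, and the other KO mice lay above all WT mice. The log2 fold change was 0.40 (SE 0.12, interval 0.15 to 0.66, limma adjusted p = 0.0517), with adjusted p from 0.0190 to 0.180 when each mouse was left out in turn. It passed without KO mouse 8, without WT mouse 2 and in DESeq2 on recovered reads (adjusted p = 0.0293).

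CDKN2D, on chromosome 9 (21288410 to 21291407), encodes p19 of the INK4 family. Levels of 9.01, 11.3, 9.57 and 8.18 CPM in KO mice 3, 5, 6 and 8 overlapped with 9.32, 8.42, 8.32 and 9.40 CPM in WT mice 1, 2, 4 and 7. The log2 fold change was 0.02 (SE 0.11, interval -0.21 to 0.25, limma adjusted p = 0.941). Changes beyond 0.25 in either direction lay outside this interval.

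CDKN3, on chromosome 14 (46760541 to 46771669), showed the widest separation among the members. KO mice 3, 5, 6 and 8 had 26, 50, 37 and 43 reads (1.35, 1.91, 1.13 and 1.27 CPM), whereas WT mice 1, 2, 4 and 7 had 7, 1, 3 and 1 reads (0.210, 0.0507, 0.0983 and 0.0225 CPM). Every KO mouse stood above every WT mouse, a pattern that 9.26% of all tested genes showed in the same direction. The log2 fold change was 1.65 (SE 0.18, interval 1.26 to 2.04, limma adjusted p = 7.63e-05). The size is on the log2(value + 0.01) scale, which understates changes of scarce mRNAs, and count models on the recovered reads gave up to 3.80. Since CDKN3 passed the filter only through the KO mice, its value without that filter stands beside it (1.65, limma adjusted p = 0.00088).

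**Figure D2:**
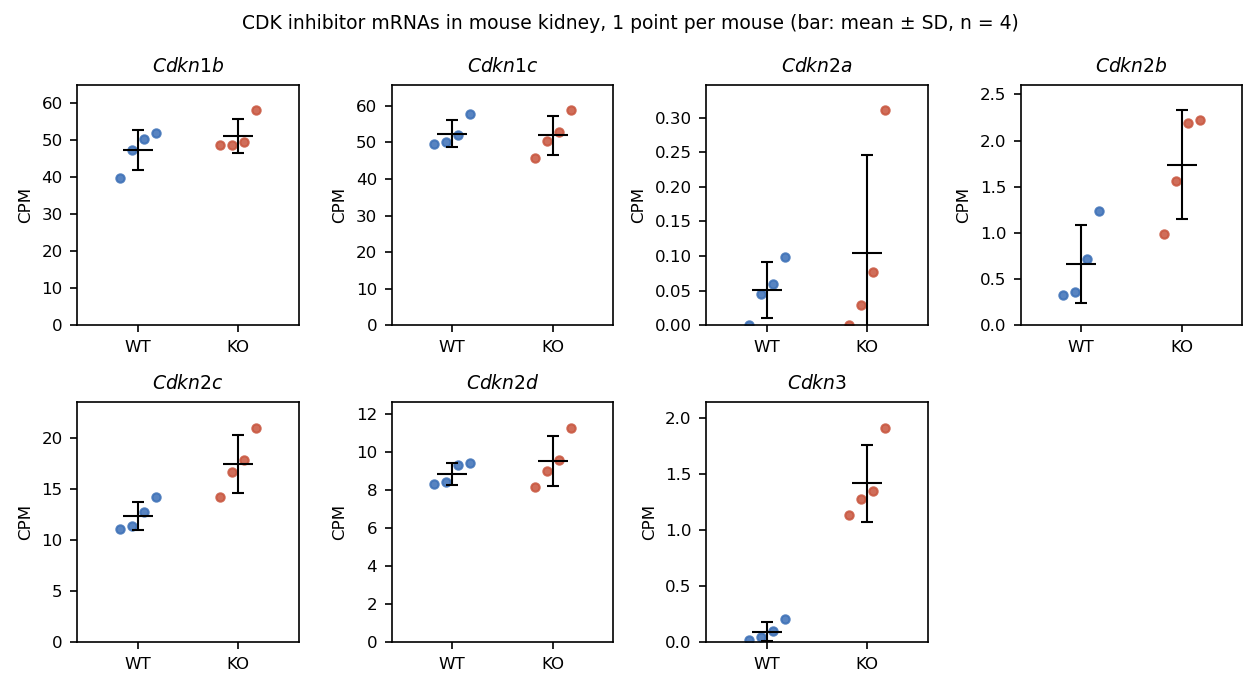
CPM of the 7 CDK inhibitor genes in each Ctns WT (blue) and Ctns KO (red) mouse, with 1 panel per gene, its own linear axis from 0, and bars for mean and SD (n = 4). CDKN3 is the only panel in which the groups lie far apart (0.0225 to 0.210 CPM in WT and 1.13 to 1.91 CPM in KO), while CDKN1B, CDKN1C, CDKN2A and CDKN2D overlap.

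CDKN1A, the left-out KIP gene that encodes p21, had 51.0 to 84.4 CPM in KO mice and 7.20 to 9.83 CPM in WT mice. In the rats it had 15.8 to 115 CPM in KO and 4.42 to 7.46 CPM in WT. Its log2 fold changes of 2.80 in the mice (SE 0.17, limma adjusted p = 1.62e-05) and 3.24 in the rats (SE 0.41, edgeR adjusted p = 3.59e-05) stood beside 1.65 and 2.52 for CDKN3 in the same fits. In the mice this order depended on the scale, since count models on recovered reads gave CDKN1A at most 2.86. In rats 17 to 24 CDKN1A rose by 1.77, beside 2.21 for CDKN3 in the same fit. In rats 25 to 32 it rose by 3.94, above the value of CDKN3 given below. This difference of CDKN1A between the ranges (2.17) passed the threshold in edgeR, so 3.24 over all rats joins unlike changes.

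The rat contrast asked the same question in the second species. Taking all 16 rats by genotype alone, CDKN3 was higher in KO, CDKN1B and CDKN2C were not called, and CDKN2B had too few reads to pass the filter. With the number range as a covariate, CDKN1B and CDKN2C were called as well (edgeR adjusted p = 0.0119 and 0.0050). By genotype alone, 1 of the 3 members tested by edgeR was called, and it was higher. Beside it, 27.5% of all 11584 genes were called in either direction and 15.2% were called higher. With 4 groups in 1 fit, CDKN2B passed the filter through KO rats 25 to 32 alone, and 4 members were tested. In rats 17 to 24, 1 of these 4 was called (CDKN3), beside 6.96% of 11839 genes in either direction and 5.05% higher. In rats 25 to 32, 3 of the 4 were called and all were higher (CDKN2B, CDKN2C and CDKN3), beside 50% of genes in either direction and 23.7% higher. With changes this frequent over all genes, and CDKN2B tested only because it is high in 1 group, nothing is read from the 3 in 4. The fit over all rats and the fits by range share the same animals. Levels are given as plain CPM, whereas the fits scaled libraries by TMM. In rats 25 to 32 scaling by library totals in place of TMM moved the median change of all genes from -0.015 to 0.15.

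CDKN1B had 48.8, 54.3, 52.0 and 51.6 CPM in KO rats 18, 20, 22 and 24 and 56.6, 56.5, 56.3 and 60.4 CPM in WT rats 17, 19, 21 and 23. All 4 KO rats of this range lay below all 4 WT rats, but the share of all genes separated in this way was not counted. In rats 25 to 32 it had 47.7, 43.3, 49.6 and 45.1 CPM in KO (26, 28, 30 and 32) and 50.1, 47.1, 40.2 and 43.5 CPM in WT (25, 27, 29 and 31), where the groups overlapped.

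The log2 fold change of CDKN1B was -0.15 over all rats (SE 0.06, interval -0.29 to -0.02, edgeR adjusted p = 0.0854). It was -0.18 in rats 17 to 24 (SE 0.06, adjusted p = 0.0953) and -0.13 in rats 25 to 32 (SE 0.06, adjusted p = 0.0922), where library totals gave 0.04 instead. None of these passed the threshold, although the change in rats 25 to 32 did without WT rat 29 (0.0432). With the number range as a covariate the change over all rats did pass (log2 fold change -0.15, edgeR adjusted p = 0.0119).

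CDKN2B was scarce in the rats, with 7, 7, 3 and 5 reads in KO rats 18, 20, 22 and 24 and 1, 8, 2 and 3 reads in WT rats 17, 19, 21 and 23. KO rats 26, 28, 30 and 32 had 17, 11, 16 and 13 reads, whereas WT rats 25, 27, 29 and 31 had 3, 3, 4 and 3. The groups overlapped in the first range and were fully apart in the second, where the share of genes so separated was not counted.

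CDKN2B rose by 2.08 on the log2 scale in rats 25 to 32 (SE 0.41, interval 1.22 to 2.94, edgeR adjusted p = 0.00046), a test it entered only through the KO rats of this range. Without the filter it was 2.08 (adjusted p = 0.00058). The value in rats 17 to 24 was 0.66 (SE 0.47, interval -0.34 to 1.65, adjusted p = 0.522). The difference between the ranges was 1.42 (SE 0.65, interval 0.05 to 2.80, edgeR adjusted p = 0.142, unadjusted p = 0.0436) and did not pass. Without WT rat 19 it was 0.71 (adjusted p = 0.583). Over all rats, CDKN2B was tested only without the filter, by edgeR (1.53, SE 0.38, adjusted p = 0.0077), and by DESeq2 (1.57, SE 0.46, adjusted p = 0.0044), and both called it. In rats 25 to 32 the 5 fibroblast markers, 5 of 6 immune markers and 2 of 3 distal markers were also higher in KO. The fibroblast sum was 374 to 418 CPM in KO against 145 to 171 CPM in WT. Lower in KO were 5 of 6 proximal tubule, 4 of 7 podocyte and 4 of 5 endothelial markers. Beside these counts, 50% of all genes in this contrast were called in either direction and 23.7% were called higher. The part of these markers' cell types in the change of CDKN2B was not tested.

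CDKN2C had 8.25, 8.27, 9.39 and 8.35 CPM in KO rats 18, 20, 22 and 24 and 6.80, 7.34, 7.06 and 6.32 CPM in WT rats 17, 19, 21 and 23. In the second range KO rats 26, 28, 30 and 32 had 12.8, 12.6, 14.5 and 11.1 CPM and WT rats 25, 27, 29 and 31 had 8.62, 9.45, 9.81 and 10.6 CPM. KO stood above WT within each range on this scale, but WT rats 25 to 32 overlapped with KO rats 17 to 24. The share of all genes separated within a range was not counted. On the TMM scale of the fit, KO (11.1 to 13.4) and WT (9.16 to 12.0) overlapped in rats 25 to 32.

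Over all rats the log2 fold change of CDKN2C was 0.26 (SE 0.16, interval -0.07 to 0.59, edgeR adjusted p = 0.231). It was 0.29 in rats 17 to 24 (SE 0.10, adjusted p = 0.0828) and 0.23 in rats 25 to 32 (SE 0.09, adjusted p = 0.0470). The call in rats 25 to 32 was lost in 10 of the 16 fits that left out 1 rat (adjusted p from 0.0101 to 0.133), those without KO rats 20, 24, 26, 28 or 30 or WT rats 17, 19, 21, 25 or 27, in the range fitted alone (0.0967) and without the filter (0.0626). With the number range as a covariate CDKN2C was called over all rats (adjusted p = 0.0050), and in rats 17 to 24 it passed without WT rat 31 (0.0483).

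CDKN3 had 66, 124, 115 and 85 reads in KO rats 18, 20, 22 and 24 (2.12, 4.38, 4.17 and 2.73 CPM) and 14, 26, 23 and 23 reads in WT rats 17, 19, 21 and 23 (0.560, 0.812, 0.706 and 0.723 CPM). KO rats 26, 28, 30 and 32 had 162, 199, 217 and 178 reads (5.20, 7.02, 7.17 and 7.21 CPM), and WT rats 25, 27, 29 and 31 had 23, 44, 26 and 25 reads (0.806, 1.08, 0.901 and 0.824 CPM). The lowest KO rat, at 2.12 CPM, was above the highest WT rat, at 1.08 CPM. Such a separation with KO above was seen for 5.21% of all genes tested in the rats.

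CDKN3 rose by 2.52 on the log2 scale over all rats (SE 0.25, interval 1.996 to 3.05, edgeR adjusted p = 3.01e-06). It rose by 2.21 in rats 17 to 24 (SE 0.23, adjusted p = 6.36e-06) and by 2.695 in rats 25 to 32 (SE 0.21, adjusted p = 3.96e-08). The difference of 0.49 between the ranges did not pass (SE 0.32, interval -0.19 to 1.16, edgeR adjusted p = 0.307). CDKN3 kept its call in every alternative and every fit without 1 animal, in both species.

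**Figure D3:**
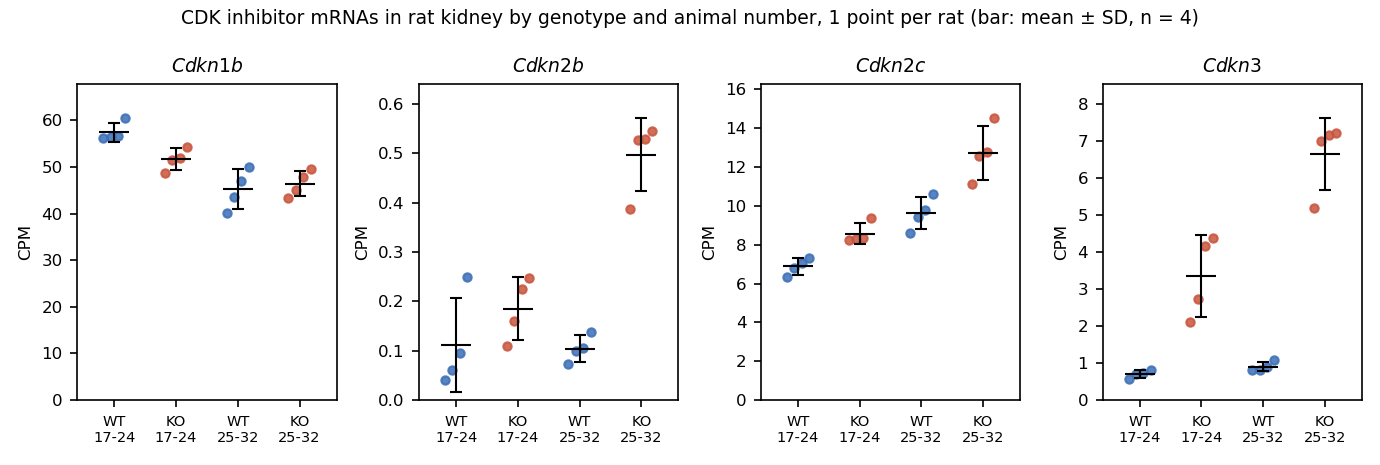
CPM of CDKN1B, CDKN2B, CDKN2C and CDKN3 in each rat, in 4 groups by genotype and animal number (WT blue, KO red), each panel with its own linear axis from 0 and bars for mean and SD (n = 4). On this scale KO lies above WT for CDKN3 and CDKN2C within each range and for CDKN2B in rats 25 to 32. For CDKN1B KO lies below WT in rats 17 to 24. The share of all genes separated within a range was not counted. Mean CDKN1B was lower and mean CDKN2C higher in the second range in both genotypes.

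No tested member changed differently between the ranges at the threshold (0 of 4, with 1 at an unadjusted p under 0.05, in edgeR and 0 in each of its alternatives), beside 14.7% of genes. The interaction was 0.05 for CDKN1B (SE 0.09, adjusted p = 0.722) and -0.06 for CDKN2C (SE 0.13, interval -0.34 to 0.22, adjusted p = 0.792).

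WT rats alone differed between the ranges for 2 of the 4 members, 1 of them higher, beside 21.1% of genes. CDKN2C was higher in WT rats 25 to 32 than in WT rats 17 to 24 by 0.62 on the log2 scale (SE 0.10, interval 0.41 to 0.82, edgeR adjusted p = 0.00020). The 2 WT groups did not overlap, but how many genes separate in this way was not counted. CDKN1B fell by 0.22 (SE 0.06, adjusted p = 0.0175), a call that was lost without WT rat 23 (0.0545). CDKN3 gave 0.50 (SE 0.26, interval -0.04 to 1.04, adjusted p = 0.185) and CDKN2B -0.04 (SE 0.52, adjusted p = 0.970). Cell type markers also differed between these WT groups. Of 7 podocyte markers 6 were lower in rats 25 to 32 (summed level 609 to 776 CPM, against 967 to 1206 CPM), all 3 distal markers in the table were lower (2596 to 3283 CPM against 3825 to 4299 CPM), and 4 of 6 immune markers were higher. Of the others, 3 of 6 proximal tubule markers were higher and 1 lower, 2 of 5 endothelial markers were lower and 1 of 5 fibroblast markers was higher. Their part in the difference of CDKN2C and CDKN1B was not tested.

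**Figure D4:**
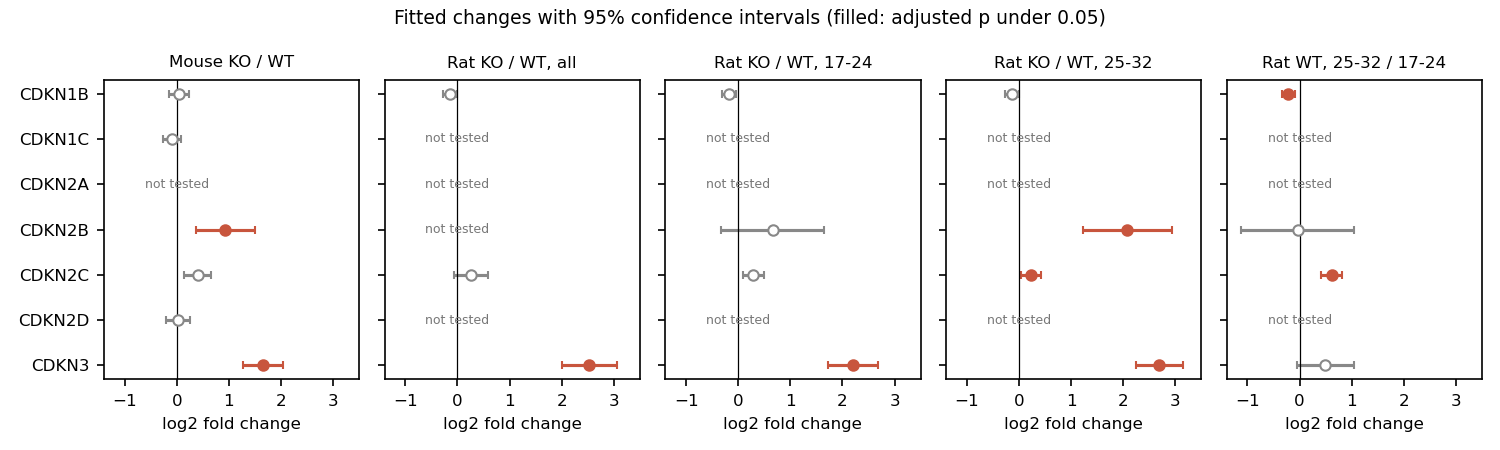
Fitted log2 fold changes (points) with 95% confidence intervals (lines) of the 7 genes in the mouse contrast, the rat contrast over all animals and by number range, and WT rats of the later against the earlier range. Filled red points passed an adjusted p of 0.05. CDKN3 passed in all 4 knockout contrasts, from 1.65 in the mice to 2.695 in rats 25 to 32.

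Between the species, none of the 3 members tested (CDKN1B, CDKN2C and CDKN3) changed differently at the threshold by limma (0 of 3, and 0 at an unadjusted p under 0.05), nor by edgeR on reads of both species, beside 1.92% of 10498 shared symbols. The change in the rats less that in the mice was -0.15 for CDKN1B (SE 0.12, interval -0.40 to 0.09, adjusted p = 0.537) and -0.11 for CDKN2C (SE 0.24, interval -0.60 to 0.37, adjusted p = 0.837). For CDKN3 it was 0.31 (SE 0.32, interval -0.35 to 0.97, adjusted p = 0.661), and edgeR on reads turned its sign (-1.21, adjusted p = 0.297).

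A list of 46 cyclins, CDKs and regulators of the inhibitors gave the setting of these values. In the mice 12 of the 43 tested were higher in KO and none lower, with a median log2 fold change of 0.20, where 6.6% of all genes were higher and 8.99% called. In the rats 16 of 40 were higher and 7 lower (median 0.14), where 15.2% of genes were higher and 27.5% called. In rats 17 to 24, 11 were higher and 0 lower (5.05% of genes higher and 6.96% called), and in rats 25 to 32, 18 were higher and 9 lower (23.7% of genes higher and 50% called). The median over all genes was 0.0098 in the mice and -0.020 in the rats.

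Among the kinases and cyclins, CCND1, which encodes the cyclin D1 partner of CDK4, rose by 0.67 in the mice (SE 0.08, limma adjusted p = 0.00016) and was not called over all rats (0.26, SE 0.14, edgeR adjusted p = 0.169), though it was in rats 17 to 24 (0.49, SE 0.12, edgeR adjusted p = 0.0203). CCNA2, cyclin A2 of S phase and G2, rose by 2.27 in the mice (SE 0.24) and by 2.58 in the rats (SE 0.19). CCNE1, cyclin E1 at the entry to S phase, rose by 1.97 in the rats (SE 0.22), beside 0.63 in the mice (SE 0.22, limma adjusted p = 0.101). These 2 sizes are on unlike scales. The mouse size is on the log2(value + 0.01) scale, which understates changes of scarce mRNAs, and the mean value of CCNE1 in WT mice was 0.0134. CDK1, the mitotic kinase dephosphorylated by the CDKN3 product, had 4.89 to 9.34 CPM in KO mice and 0.585 to 1.47 CPM in WT mice, and it rose by 2.18 there (SE 0.22, limma adjusted p = 7.67e-05) and by 2.45 in the rats (SE 0.20, edgeR adjusted p = 4.97e-07).

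E2F1, the transcription factor downstream of the retinoblastoma proteins, rose by 0.72 in the mice (SE 0.12) and by 2.02 in the rats (SE 0.21). CDC20, an activator of the ubiquitin ligase of mitosis, rose by 1.68 (SE 0.22) and 1.51 (SE 0.18). In the mice TOP2A, a topoisomerase of dividing cells, rose by 2.29 (SE 0.24), and CCNB1, the mitotic cyclin B1, by 1.62 (SE 0.20). Other settings gave up to 2.97 for CCNB1. MYC, a transcription factor that promotes growth, rose by 1.91 in the rats (SE 0.20) and by 0.44 in the mice (SE 0.12, limma adjusted p = 0.0346). CKS2, a CDK subunit of mitosis, rose by 2.17 in the rats (SE 0.21), while its value in the mice was -0.30 (SE 0.11, limma adjusted p = 0.111), and this difference between the species passed (2.17, SE 0.27, limma adjusted p = 4.79e-05).

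By role, of the D cyclins with CDK4 and CDK6, the partners bound by INK4 proteins, 1 of 5 was higher in the mice and 0 of 4 over all rats, with 1 of 4 higher in rats 17 to 24 (CCND1) and 1 of 4 in rats 25 to 32 (CDK4). Over all genes 6.6% were higher and 8.99% called in the mice, and 15.2% and 27.5% over all rats. In rats 17 to 24, 5.05% were higher and in rats 25 to 32, 23.7%. With few genes per role, nothing is read from the counts of this paragraph. Of the cyclins E and A and CDK2, 1 of 4 was higher in the mice and 3 of 4 in the rats. Of the genes listed under turnover of KIP proteins (SKP2, CKS1B, CUL1, SKP1, RBX1 and CKS2), 1 of 6 was higher in the mice, while in the rats 2 of 4 were higher (CKS1B and CKS2) and 2 lower (CUL1 and SKP1). CKS2 is a CDK subunit of mitosis, so its rise is not read as a change in KIP turnover. Of the transcriptional regulators of KIP and INK4 genes, 2 of 12 were higher in the mice and 4 of 13 were higher and 4 lower in the rats. FOXO1 and FOXO4, forkhead factors known to act on CDKN1B, were among the lower ones in the rats (-0.45, SE 0.14, and -0.29, SE 0.06). Of the 7 retinoblastoma and E2F genes, E2F1 alone was called in the mice, and E2F1 (higher) and RBL2 (lower) in the rats.

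Proliferation markers moved with CDKN3. All 5 (MKI67, TOP2A, PCNA, CCNB1 and CDC20) were higher in KO mice, with a summed level of 86.0 to 129 CPM against 43.0 to 50.7 CPM in WT, and all 3 in the rat table were higher over all rats. MKI67, the antigen of cycling cells, rose by 2.45 in the mice (SE 0.24) and by 2.18 in the rats (SE 0.14). Immune markers rose too, 5 of 7 in the mice and 5 of 6 in the rats, with sums of 127 to 149 CPM in KO mice against 83.1 to 104 CPM in WT. Fibroblast markers were higher for 3 of 5 in the mice (202 to 227 CPM against 101 to 130 CPM) and for 5 of 5 in the rats.

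Proximal tubule markers were lower for 1 of 8 in the mice and 4 of 6 in the rats, endothelial markers for 1 of 6 and 1 of 5, and distal markers were higher for 0 of 6 and 2 of 3. Beside these marker counts, 8.99% of all genes in the mice and 27.5% in the rats were called in either direction. No podocyte marker was called over all rats, and no list had a marker at 0. The part of these cell types in the changes of CDKN3 and CDKN2B was not tested, and in bulk tissue fewer cells of a type and less RNA per cell cannot be told apart.

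Across the 16 rats, after the mean of each genotype and range was taken off, CDKN3 and MKI67 had a Pearson correlation of 0.50, and CDKN1B and MKI67 of 0.71. With CCNA2, the other cell cycle gene looked at, the values were 0.31 for CDKN3 and 0.06 for CDKN1B. The 4 members of the rat table followed each other weakly, from -0.15 (CDKN1B with CDKN2C) to 0.22 (CDKN1B with CDKN3). The genes most like each member, among about 10826 with an average of at least 1 CPM, were APPL1 (0.91) and FOXO4 (0.88) for CDKN1B and IKBIP (0.87) and CARD14 (0.85) for CDKN3. They were FLVCR2 (0.80) and DCAF6 (0.78) for CDKN2C and ARFGAP1 (0.86) and SF3A3 (0.84) for CDKN2B, which rests on 1 to 17 reads per rat. These values describe 16 libraries that share depth and scaling, and they carry no test.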

How the data were processed

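Total RNA of 24 animals was sequenced as stranded mRNA libraries. The submitters' processing notes name bcl2fastq 2.20, STAR 2.7.3, DESeq2 1.24.0, R 3.6.1 and the builds mm10 and rn5. The counter, annotation and filters are not given in the sources used here. The deposited mouse table holds a signal scaled by the authors, worked out here as reads plus 0.5 over the 75th percentile of the library. Reads were recovered from it, and 98.99% of values were whole within 0.01. The deposited rat table holds the authors' estimated counts, rounded here after a constant offset was taken off (97.7% whole within 0.01).

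Groups came from the genotype labels. Mouse values were tested in R 4.3.3 with limma 3.58.1 (trend, robust) on log2(value + 0.01), keeping genes with a mean value of at least 0.01, which left 13132. Rat counts were tested with the quasi-likelihood test of edgeR 4.0.16 (TMM, filterByExpr with a minimum count of 10), by genotype over 11584 genes and in 4 groups of genotype and number range over 11839. The species interaction used limma on 10498 symbols, the rat scaled as the mouse. Tests were two-sided, Benjamini-Hochberg adjusted over all genes, with a threshold of 0.05. Mouse coordinates and exon lengths come from GENCODE vM21 (GRCm38). Scripts were tested on simulated reads. Alternatives were other pseudocounts, filters, scalings, DESeq2 1.42.0, limma-voom, the number range as a covariate and fits without each animal.

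The members and lists were chosen with earlier results of these data known, and the promoter motifs after values were seen. All 7 members are named, with up to 8 genes of the pathway list per species by size of change and, per member, the 2 genes most like it. The text also names, after their values were seen, CDK4, FOXO1, RBL2, CKS1B, CUL1 and SKP1. Depth limits CDKN2A, CDKN2B and mouse CDKN3, and intervals of other genes rest on the number of animals. Libraries of a group all differed by more than sampling noise (chi-square over degrees of freedom at least 8.60).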

Additional observations from a re-analysis of the deposited data

Results flagged for a closer look

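Of 22 pairs of a member and a genotype group that were examined for an animal far from the rest, 2 stood out, and chance alone would mark about 5% of such groups. CDKN1B in KO mouse 3 was 57.95 CPM, with the other KO mice between 48.5 and 49.3 CPM. Without this mouse the log2 fold change of CDKN1B went from 0.04 to -0.02, and neither value passed the threshold. CDKN2B in WT rat 19 was 0.250 CPM, from 8 reads, with the other WT rats between 0.0400 and 0.139 CPM. Without this rat the log2 fold change of CDKN2B in rats 17 to 24 was 1.37, against 0.66 with it, and it was not called either way.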

How the results depend on the processing

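The number of members called in the mice went from 2 to 1 with a pseudocount of 1, without the filter and in edgeR on recovered reads, to 3 with DESeq2 on recovered reads (CDKN2C added), and was 1 to 2 when each mouse was left out. In the rats it went from 1 to 2 with DESeq2 and without the filter, where CDKN2B was tested and called, and to 3 with the number range as a covariate. When each rat was left out it was 1 to 2 in rats 17 to 24 (2 without WT rat 31), 1 to 2 between WT ranges (1 without WT rat 23) and 2 to 4 in rats 25 to 32 (4 without WT rat 29). There it also went from 3 to 2 without the filter and in the range fitted alone. Scaling by library totals, chosen after seeing the data, moved no member count.

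Signs turned for values that were not called. Leaving out each animal gave -0.046 to 0.087 for CDKN1B and -0.057 to 0.089 for CDKN2D in the mice, -0.26 to 0.68 for CDKN2B between WT ranges and -0.11 to 0.014 for the CDKN2C interaction. Library totals gave 0.039 for CDKN1B in rats 25 to 32 and 0.090 for the CDKN2C interaction. The species difference of CDKN3 was -1.21 with edgeR on reads. The cause was not tested.

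Calls over all genes moved most for the species difference (202, against 307 to 401 under other settings and 104 to 314 without 1 animal). The interaction gave 1745, with 2656 by library totals and 1010 to 2392 without 1 rat. The mice gave 1180, with 653 to 1401 without 1 mouse, and rats 17 to 24 gave 824, with 503 to 890 without 1 rat. No paired analysis was possible because the labels give no replicate number that groups share.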
